A study of Mus musculus with 12 samples.

Results

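The Elovl genes encode the fatty acid elongases, the membrane enzymes of the endoplasmic reticulum that lengthen fatty acids. All 7 mouse members, Elovl1 to Elovl7, were taken by gene symbol from the 48576 symbols of the count files. The family was chosen on measured values of these livers, because Elovl3 was known to fall strongly in both overgrowth models, so the levels of Elovl3 in those comparisons are given as a description with no test. The other members were taken for their name and are tested, although in the same comparisons with controls that drew attention to the family.

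Each elongase catalyses the condensation that opens a turn of the elongation cycle, joining malonyl-CoA to a fatty acyl-CoA, and members differ in the chains they accept. The same 3 partner activities complete every turn, a ketoacyl reductase (Hsd17b12), a dehydratase (Hacd proteins) and an enoyl reductase (Tecr). In liver the products go into phospholipids, sphingolipids and stored triglyceride, and Elovl3 is known in mouse liver for higher expression in males and for a daily rhythm.

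The series holds RNA-seq of livers from mice of the YAP and MYC overgrowth models in 12 libraries and 5 groups. All YAP-model mice carried Col-TRE-YAPS127A and Rosa26-LSL-rtTA and were given AAV-TBG-Cre at 8 to 10 weeks of age, which switches on the doxycycline-dependent activator rtTA in the liver. YAPS127A, a YAP mutant that escapes inhibition by the Hippo kinases, had been induced with doxycycline for 4 weeks (n = 3) or 2 weeks (n = 2), and the YAP controls had no induction (n = 2). MYC mice carried LAP-tTA and TRE-MYC, with MYC switched on in the liver at about E8 when doxycycline was taken from the mothers, and the offspring's livers were taken 4 weeks after birth (n = 3). The genotype of the MYC controls was LAP-tTA without TRE-MYC (n = 2). Their age at collection is not given in the sources used here, and the part of age in the MYC comparisons was not tested. LAP-tTA drives the transactivator from a liver promoter, and the YAP mice were thus adults while the MYC offspring were juveniles. The labels do not say whether each library came from a separate animal, so p-values measure the spread between these samples only.

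Libraries held 12511170 to 17690798 counts in genes. The labels name hepatocytes as the cell type, and all 9 hepatocyte markers examined were present in every group, with summed levels of 34740 to 73230 CPM (counts scaled by library size and composition to a common total of 1e+06) after 4 weeks of YAP, 70470 to 89750 CPM after 2 weeks and 82180 to 96760 CPM in YAP controls, and 30950 to 56940 CPM in MYC livers against 111300 to 114300 CPM in MYC controls. Markers of other cells were present as well. The summed level of 10 macrophage markers was 557 to 1215 CPM after 4 weeks of YAP and 1540 and 1930 CPM after 2 weeks, against 279 and 284 CPM in YAP controls, and 548 to 815 CPM in MYC livers against 269 and 287 CPM in MYC controls. The summed level of 8 neutrophil markers was 708 to 1436 CPM in MYC livers against 3.98 CPM in both MYC controls. In the YAP model the neutrophil sum was 51.8 to 160 CPM after 4 weeks and 17.1 and 195 CPM after 2 weeks. YAP controls had 2.23 and 4.83 CPM. The summed level of 10 cholangiocyte markers was 505 to 3313 CPM after 4 weeks of YAP and 646 to 1303 CPM after 2 weeks, against 160 to 182 CPM in YAP controls. Skeletal muscle markers summed to 431 and 472 CPM in the 2-week libraries, against 0.743 and 1.06 CPM in YAP controls. Sex-linked transcripts split the YAP model. Xist, the RNA of the inactive X chromosome, stood at 1891 to 2390 CPM in the 3 4-week libraries and 1748 CPM in 2-week replicate 2, and between 0.955 and 10.3 CPM in the other 8 libraries, which all had Ddx3y, from the Y chromosome, at 95.6 to 160 CPM. At 4 weeks, sex and induction therefore cannot be told apart, whereas 2-week replicate 1, both YAP controls and the whole MYC model had the male pattern.

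Elovl3, which extends saturated and monounsaturated chains, was almost absent from every liver with induced YAP or MYC. It had 0, 0 and 1 counts in the 4-week YAP livers and 3 and 0 counts in the 2-week livers, against 902 and 711 counts in YAP controls. In MYC livers it had 0, 1 and 1 counts, against 613 and 1088 counts in MYC controls. In CPM the highest induced library reached 0.213, and the 4 controls held 87.2 and 75.4 in the YAP model and 54.2 and 84.8 in the MYC model. No induced library came near a control library in either model.

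Expressed as control over induced, the level of Elovl3 was 4173 times higher in YAP controls than after 4 weeks of YAP, with an exact 95% counting interval of 748 to 164900 that rests on 1 count in the induced group. The same ratio was 839 at 2 weeks (interval 286 to 4071) and 1701 in the MYC model (interval 470 to 14060). These intervals cover counting error only. Because the liver samples held markers of several cell types, fewer cells that express a gene and less RNA per cell cannot be told apart. The same holds for every later result. Low values were also found among libraries of 1 sex pattern. The 2-week library with the male pattern had 3 counts, or 0.213 CPM, and all MYC libraries with 0 to 1 counts had the male pattern like their controls. In the YAP model this rests on 1 library, and the part of sex pattern in the level of Elovl3 was not tested. Elovl3 lies at chr19:46131897-46135694 on the plus strand (GRCm38), and its 3' end touches the oppositely oriented Pitx3, whose group means were at most 0.965 CPM. Of its nearest coding neighbours, Nolc1 passed the test in none of the 3 comparisons with controls, at 40.4 ± 1.93 CPM after 4 weeks (n = 3), 53.0 ± 5.16 CPM after 2 weeks (n = 2) and 37.7 ± 5.71 CPM in YAP controls (n = 2), and at 57.2 ± 8.44 CPM in MYC livers against 41.2 ± 3.09 CPM in MYC controls. Gbf1 on the other side passed as lower in all 3.

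**Figure D1:**
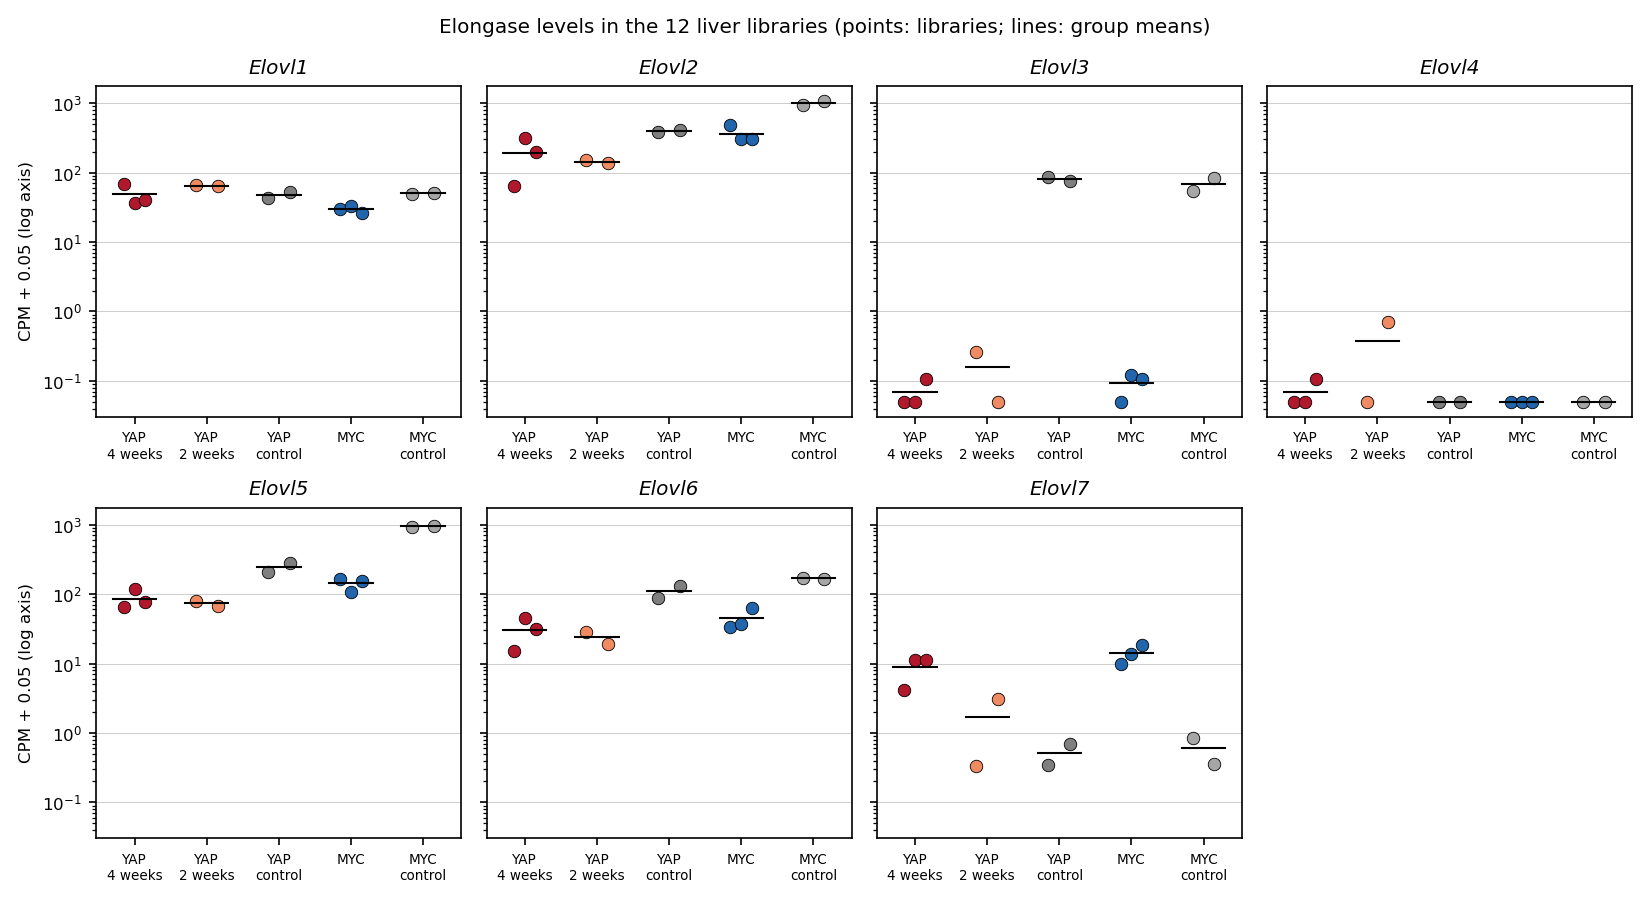
Level of each elongase in CPM plus 0.05 on a log axis, with 1 point per library and a line at the group mean. Elovl3 sits at 0 to 0.213 CPM in every induced library and at 54.2 to 87.2 CPM in the controls, while Elovl7 runs the other way in MYC livers and in all 4-week YAP livers.

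The remaining members were compared with edgeR's quasi-likelihood test, with Benjamini-Hochberg adjustment over all 17964 tested genes and adjusted p under 0.05 counted as a call. After 4 weeks of YAP, Elovl5 and Elovl6 fell and Elovl7 rose, 1 higher and 2 lower of the 5 members tested, where 18.1% of all tested genes were called higher and 15.7% lower. After 2 weeks Elovl5 and Elovl6 fell, 2 of 5, against 12.7% of all genes called lower, and none was called higher, against 15.1% of all genes (by edgeR 0 of the 5 were higher at an unadjusted p under 0.05, and DESeq2 called 0 higher). In MYC livers Elovl1, Elovl5 and Elovl6 fell and Elovl7 rose, 3 lower and 1 higher of 5, against 8.56% of all genes called lower and 9.76% higher. With composition scaling 3253 genes were higher and 2820 lower at 4 weeks, 2716 and 2277 at 2 weeks, and 1754 and 1537 with MYC. Scaling on total counts gave 7863 higher and 897 lower at 4 weeks, 5228 and 979 at 2 weeks, and 3277 and 743 with MYC. The 4-week and 2-week comparisons share their 2 control livers. All are protein-coding genes, annotated on GRCm38 at chr4:118428093-118432953 (Elovl1, plus strand), chr13:41182381-41220405 (Elovl2, minus strand), chr9:77917364-77984519 (Elovl5, plus strand), chr3:129532355-129638495 (Elovl6, plus strand) and chr13:108214404-108285683 (Elovl7, plus strand). Elovl4 lies at chr9:83778692-83806277 on the minus strand. Elovl6 overlaps the antisense gene model Gm35986 at its start, and Elovl7 holds 2 processed pseudogenes within its span.

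Elovl5, which elongates polyunsaturated fatty acids of intermediate length, fell in all 3 comparisons. It had 64.0, 117 and 76.4 CPM after 4 weeks and 80.1 and 66.4 CPM after 2 weeks, against 210 and 277 CPM in YAP controls. MYC livers had 166, 108 and 152 CPM, against 935 and 971 CPM in MYC controls. The groups did not overlap in either model, and the MYC controls stood far above the YAP controls. The log2 fold change was -1.51 ± 0.27 at 4 weeks (SE, adjusted p = 0.00183), -1.73 ± 0.31 at 2 weeks (adjusted p = 0.0021) and -2.75 ± 0.27 with MYC (adjusted p = 0.000271). Elovl5 was the only one of the 5 whose calls in these comparisons held with each library left out in turn and under every other setting tried.

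Elovl6 turns palmitate into stearate and is a target of the lipogenic factor SREBP1. It had 14.99, 45.5 and 31.1 CPM after 4 weeks and 28.4 and 19.3 CPM after 2 weeks, against 88.5 and 131 CPM in YAP controls. MYC livers had 33.5, 36.9 and 63.8 CPM, against 169 and 167 CPM in MYC controls. Every induced liver was below every control of its model. The log2 fold changes were -1.84 ± 0.42 at 4 weeks (adjusted p = 0.00814), -2.20 ± 0.48 at 2 weeks (adjusted p = 0.00836) and -1.91 ± 0.42 with MYC (adjusted p = 0.013). The call rested on single libraries. It was lost at 4 weeks without YAP control 2 (adjusted p = 0.0686), at 2 weeks without YAP control 2 (0.0526) or 2-week replicate 2 (0.077), and with MYC without MYC replicate 2 (0.0512), MYC control 1 (0.0759) or MYC control 2 (0.071), with the direction kept. Total-count scaling also ended the 4-week call (log2 fold change -1.08, adjusted p = 0.0734).

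Elovl7, which elongates saturated long chains, was hardly detected in control livers. It had 65, 192 and 200 counts after 4 weeks and 4 and 50 counts after 2 weeks, against 3 and 6 counts in YAP controls. MYC livers had 167, 195 and 313 counts, against 9 and 4 counts in MYC controls. In CPM the means were 8.75 ± 4.01 at 4 weeks (n = 3), 1.64 ± 1.91 at 2 weeks (n = 2) and 0.463 ± 0.245 in YAP controls (n = 2). MYC livers averaged 13.9 ± 4.12 CPM (n = 3) and MYC controls 0.554 ± 0.342 CPM (n = 2). The log2 fold change was 4.23 ± 0.94 at 4 weeks (adjusted p = 0.00679) and 4.65 ± 0.91 with MYC (adjusted p = 0.00749), and 1.84 ± 1.01 at 2 weeks, which did not pass (adjusted p = 0.197). In the YAP model the 2-week libraries differed in Elovl7, in sex pattern and in markers of other cells. Replicates 1 and 2 had neutrophil sums of 17.1 and 195 CPM and cholangiocyte sums of 646 and 1303 CPM. The 2-week library with the male pattern had 0.283 CPM, beside 0.29 and 0.637 CPM in the controls, and the one with the female pattern had 2.99 CPM, so the 2-week value passed without replicate 1 (log2 fold change 2.70, adjusted p = 0.0329) and changed sign without replicate 2 (-0.67, adjusted p = 0.724). In the MYC model, where Elovl7 also rose, all libraries had the male pattern. The part of sex pattern or cell composition in its level was not tested. Leaving out 1 control ended the call at 4 weeks (without YAP control 1, adjusted p = 0.0699) and with MYC (without MYC control 1, 0.0585, or MYC control 2, 0.0871).

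Elovl2, the elongase of the longest polyunsaturated chains in liver, did not pass in any comparison with controls, although its values lay below the controls throughout. It had 64.7, 317 and 199 CPM after 4 weeks and 150 and 135 CPM after 2 weeks, against 387 and 411 CPM in YAP controls. MYC livers had 483, 301 and 309 CPM, against 945 and 1072 CPM in MYC controls. The groups did not overlap, which with 2 or 3 libraries a group is a description and not a test. In the 4-week group replicate 1 stood apart from the other 2. The log2 fold changes were -1.04 ± 0.48 (adjusted p = 0.117), -1.48 ± 0.54 (adjusted p = 0.066) and -1.47 ± 0.48 (adjusted p = 0.0572) at 4 weeks, at 2 weeks and with MYC. Without 4-week replicate 1, which also enters the shared estimate of spread, the values at 2 weeks and with MYC passed (adjusted p = 0.00239 and 0.00236), and without 4-week replicate 2 all 3 did (0.0221, 0.0307 and 0.0273); DESeq2 called it lower at 2 weeks (0.0196) and with MYC (0.0161).

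Elovl1, which makes saturated and monounsaturated very long chains for sphingolipids, gave 69.1, 36.9 and 40.7 CPM after 4 weeks and 65.9 and 64.2 CPM after 2 weeks, against 42.7 and 52.4 CPM in YAP controls. MYC livers had 29.5, 32.7 and 26.5 CPM, against 49.9 and 51.2 CPM in MYC controls. The 4-week libraries straddled the controls, and the MYC libraries all lay below theirs. The log2 fold change was 0.04 ± 0.24 at 4 weeks (adjusted p = 0.918), 0.45 ± 0.26 at 2 weeks (adjusted p = 0.219) and -0.77 ± 0.24 with MYC (adjusted p = 0.0426). Scaling on total counts alone, which raised the median log2 fold change of all genes to 0.91 at 4 weeks, 0.64 at 2 weeks and 0.43 with MYC, against 0.18, 0.10 and 0.02 with composition scaling, made Elovl1 higher in both YAP comparisons (0.75, adjusted p = 0.0186, and 0.99, adjusted p = 0.0102) and ended the MYC call (-0.36, adjusted p = 0.264). Its signs were the same under both scalings, and the calls were not. The MYC call was also lost in 9 of the 12 fits that left out 1 library (adjusted p = 0.0566 to 0.18). Its 3' end overlaps that of Cdc20, a cell-cycle gene on the other strand. Cdc20 had 12.5 ± 12.8 CPM after 4 weeks (n = 3), 13.95 ± 3.69 CPM after 2 weeks (n = 2) and 0.309 ± 0.163 CPM in YAP controls (n = 2). In MYC livers Cdc20 had 18.9 ± 9.72 CPM (n = 3), against 8.73 ± 0.773 CPM in MYC controls (n = 2). Whether counting used strand is not given in the sources used here.

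Elovl4, which builds ultra-long chains in retina, brain, skin and testis, was the member that failed the filter on low counts. It had 11 counts in 2-week replicate 2, 1 count in 4-week replicate 3 and 0 in the other 10 libraries. In those at 0, 3 counts, the limit that a count of 0 allows, correspond to 0.172 to 0.318 CPM.

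**Figure D2:**
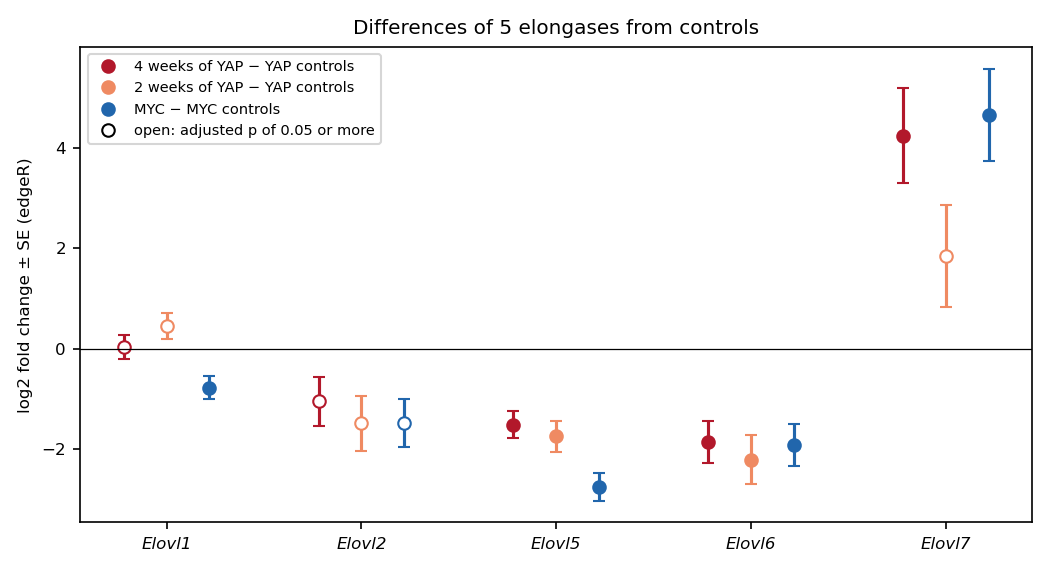
log2 fold change against controls with its SE from edgeR for the 5 members tested, at 4 weeks and 2 weeks of YAP and with MYC, filled where adjusted p is under 0.05. Elovl5 and Elovl6 are filled below 0 in all 3 comparisons, and Elovl7 is filled above 0 at 4 weeks and with MYC.

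The bases upstream of the 3 members called in at least 2 comparisons are printed so that the letters can be read beside these values. RefSeq windows on GRCm38.p6, 250 bases before to 50 after a start, were held for 6 of the 7 members, 8 windows in all; Elovl3 was not among them. Printed are the bases before the annotated start, 5' to 3' on the plus strand, at chr9:77917115-77917363 for Elovl5, chr3:129532136-129532354 for Elovl6 and chr13:108214154-108214403 for Elovl7. Capitals mark matches on either strand to any of 7 motifs, the E-box CACGTG, the D-box TTATGTAA, the STAT motif TTCNNNGAA, the TEAD motif GGAATG, the nuclear receptor half-site AGGTCA, the sterol regulatory element core TCACNCCAC and the CCAAT box.
Elovl5: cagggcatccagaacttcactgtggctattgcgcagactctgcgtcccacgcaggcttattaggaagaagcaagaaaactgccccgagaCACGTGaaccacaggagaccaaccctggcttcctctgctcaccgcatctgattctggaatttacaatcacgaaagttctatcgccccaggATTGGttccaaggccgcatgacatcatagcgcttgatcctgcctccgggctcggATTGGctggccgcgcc
Elovl6: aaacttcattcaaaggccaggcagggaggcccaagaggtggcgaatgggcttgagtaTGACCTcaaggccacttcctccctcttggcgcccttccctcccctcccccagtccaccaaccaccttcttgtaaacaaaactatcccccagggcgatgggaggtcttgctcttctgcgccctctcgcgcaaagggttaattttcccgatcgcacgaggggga
Elovl7: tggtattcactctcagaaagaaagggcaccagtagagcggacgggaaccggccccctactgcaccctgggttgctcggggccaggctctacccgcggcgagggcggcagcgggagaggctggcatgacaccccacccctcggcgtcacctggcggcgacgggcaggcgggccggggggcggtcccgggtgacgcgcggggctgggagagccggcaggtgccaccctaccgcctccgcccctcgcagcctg
Positions are counted from the RefSeq start, which for Elovl6 lies downstream of the annotated start where the printed bases end. The Elovl5 window held 1 E-box, at position -161, and 2 CCAAT boxes. The Elovl6 window held 1 nuclear receptor half-site at position -193, and the Elovl7 window held none of the 7 motifs. No match overlapped another. Among all 32851 windows of the table, 7.15% held the E-box, 37.4% a CCAAT box, 16.3% the half-site, 14.7% the TEAD motif, 8.30% the STAT motif, 1.24% the sterol core and 0.938% the D-box. A match describes these letters and is not a bound site.

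No member was called between the 2 times of induction or between the effects of the 2 oncogenes. Between 4 and 2 weeks of YAP edgeR called 0 of the same 5 members (1 at an unadjusted p under 0.05, Elovl7, and 0 by DESeq2), where 0.0612% of all genes were called, and a p that misses the threshold does not show that the levels are alike. Elovl7 was 2.39 ± 0.77 higher on the log2 scale at 4 weeks than at 2 weeks (unadjusted p = 0.0103, adjusted p = 0.574), and all 3 4-week values lay above both 2-week values. Elovl3, which entered the fit through its control libraries, had 0 to 3 counts at both times and is left out of this count. When the effect of MYC was set against that of 4 weeks of YAP, edgeR called 0 of 5 (2 at an unadjusted p under 0.05, Elovl1 and Elovl5, and 1 by DESeq2, Elovl5), against 7.48% of all genes. For Elovl5 the MYC effect minus the YAP effect was -1.24 ± 0.38 (adjusted p = 0.0746), and it passed with DESeq2 (-1.22, adjusted p = 0.0306), with total-count scaling (-1.59, 0.0248), with no filter on low counts (-1.26, 0.0201) and without 4-week replicate 1 (-1.41, 0.0272). The 2 models differ in age, driver and length of induction, which cannot be told apart from the oncogene. Sex pattern cannot either, since the 4-week YAP libraries differed in it from their controls and the MYC libraries did not.

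Per kb of exon, which allows levels of different genes to be compared, the summed level of the 7 elongases was 98.0 ± 36.75 CPM per kb after 4 weeks (n = 3), 84.9 ± 6.31 after 2 weeks (n = 2) and 245.5 ± 20.9 in YAP controls (n = 2), while it was 153.5 ± 30.7 in MYC livers (n = 3) and 605 ± 41.0 in MYC controls (n = 2). The highest induced library of each model lay below its lowest control, at 136 against 231 in the YAP model and 187.5 against 576 in the MYC model. The sum includes Elovl3, at 41.2 in YAP controls and 35.2 in MYC controls. Elovl3 was chosen for its known fall, so part of this gap was fixed by the choice. Elovl2 and Elovl5, which act on polyunsaturated chains, made up most of the sum in both control groups. In YAP controls the levels per kb ran Elovl2 (100.6), Elovl5 (69.2), Elovl3 (41.2), Elovl1 (17.4), Elovl6 (17.05) and Elovl7 (0.115), with Elovl1 and Elovl6 overlapping. In MYC controls they ran Elovl5 (271), Elovl2 (254), Elovl3 (35.2), Elovl6 (26.2), Elovl1 (18.5) and Elovl7 (0.138), with Elovl5 and Elovl2 overlapping. Elovl3 thus came next after Elovl2 and Elovl5 in both, with 16.9% ± 3.15 of the summed level in YAP controls and 5.77% ± 1.42 in MYC controls (n = 2 each).

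In induced livers Elovl3 dropped out of this order of means, and other members changed places at 2 weeks and with MYC. After 4 weeks it was Elovl2 (48.8 CPM per kb), Elovl5 (24.4), Elovl1 (17.9), Elovl6 (4.75) and Elovl7 (2.18), and each of these overlapped its neighbour except Elovl1 and Elovl6. After 2 weeks it was Elovl2 (36.0), Elovl1 (23.9), Elovl5 (20.8), Elovl6 (3.705) and Elovl7 (0.408), with no overlap between neighbours. In MYC livers the order was Elovl2 (91.9), Elovl5 (40.3), Elovl1 (10.9), Elovl6 (6.96) and Elovl7 (3.47), and Elovl1 and Elovl6 overlapped. The share of Elovl1 was 21.95% ± 16.0 after 4 weeks (n = 3) and 28.2% ± 1.58 after 2 weeks (n = 2), against 7.09% ± 0.422 in YAP controls (n = 2), and 4-week replicate 1 alone reached 40.1%. Elovl5 made up 26.3% ± 2.98 of the sum in MYC livers (n = 3), against 44.8% ± 1.84 in MYC controls (n = 2), and Elovl2 59.3% ± 5.68 against 42.0% ± 0.912. Shares in induced livers are of a sum almost without Elovl3, which by itself raises the shares of the other members.

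**Figure D3:**
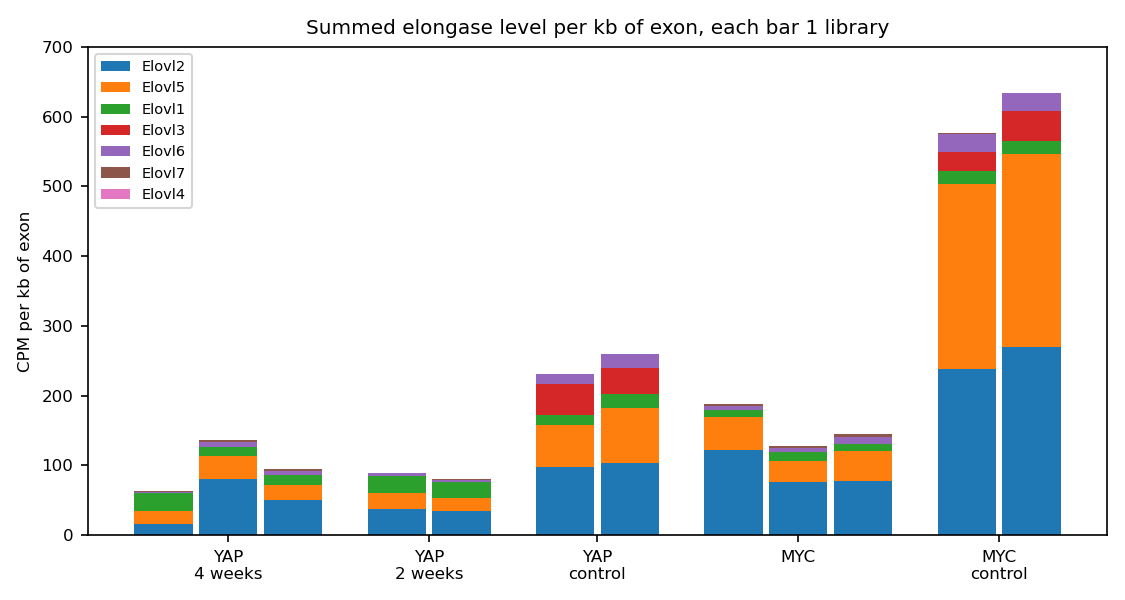
Level of the 7 elongases per kb of exon in CPM, stacked, with 1 bar per library. The sums reach 63.2 to 136 in 4-week YAP livers, 80.5 and 89.4 in 2-week livers and 231 and 260 in YAP controls, and 128 to 187.5 in MYC livers and 576 and 634 in MYC controls; the Elovl3 block is visible in controls only.

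The enzymes that complete the elongation cycle were mostly lower with YAP and mostly not called with MYC. Of 6 partners tested, 4 were lower and 1 higher at 4 weeks and again at 2 weeks, and 1 was lower and 1 higher with MYC; the median log2 fold changes were -0.88, -0.93 and -0.31, beside 0.18, 0.10 and 0.02 over all genes. For this and the following lists, the shares of all genes called higher and lower were 18.1% and 15.7% at 4 weeks, 15.1% and 12.7% at 2 weeks, and 9.76% and 8.56% with MYC. With total-count scaling 1 partner was higher and 2 lower at each YAP time, and the MYC median was 0.10. Hsd17b12, the reductase of the cycle, fell in all 3, with 38.6 ± 3.23 CPM after 4 weeks (n = 3), 39.6 ± 2.22 CPM after 2 weeks (n = 2) and 163 ± 11.6 CPM in YAP controls (n = 2), while MYC livers (n = 3) had 44.5 ± 3.45 CPM against 116 ± 10.4 CPM in MYC controls (n = 2). Its log2 fold changes were -2.08, -2.04 and -1.38 (adjusted p = 1.45e-05, 5.28e-05 and 0.000279 by edgeR). The dehydratases Hacd2 (-1.11 at 4 weeks and -1.17 at 2 weeks) and Hacd3 (-1.28 and -1.38) and the enoyl reductase Tecr (-0.65 and -0.68) fell in the YAP comparisons, and Hacd4 rose in all 3 (1.08, 1.89 and 1.31). Tecr at 4 weeks was 0.09 with total-count scaling.

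The desaturases, which alternate with elongases in making unsaturated fats, split by gene. Of 6 tested, 2 were higher and 1 lower at 4 weeks and at 2 weeks, and 1 was higher and 3 lower with MYC, with medians of -0.43, -0.26 and -1.51. At 4 weeks 1 of 6 lower is about the 15.7% of all genes called lower, and total-count scaling gave 3 higher and 0 lower there and turned the YAP medians to 0.31 and 0.25. Fads2, which works with Elovl2 and Elovl5 on polyunsaturated fatty acids, fell in all 3 (log2 fold changes -1.45, -2.00 and -2.77). Fads1, its partner, and Scd1, the main stearoyl-CoA desaturase of liver, were called lower with MYC only (-3.01 and -4.56). At 2 weeks of YAP they changed by -0.67 and -3.01 (edgeR adjusted p = 0.339 and 0.0727). The MYC effect minus the 4-week YAP effect was called for neither (edgeR adjusted p = 0.0629 and 0.15). Scd2 rose in all 3 (1.77, 1.96 and 5.43), and Fads3 rose with YAP (3.94 and 4.41). In MYC livers Scd1 stood at 230 ± 137 CPM against 5430 ± 608 CPM in MYC controls, and Scd2 at 385 ± 323 CPM against 8.94 ± 1.02 CPM (n = 3 and 2).

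Genes that make palmitate, the substrate of Elovl6, were lower as a group. Of 9 tested, 8 were lower at 4 weeks, 8 at 2 weeks and 6 with MYC and none was higher, with medians of -1.78, -1.71 and -1.69. With total-count scaling 5, 6 and 3 were lower and none higher. Me1, which supplies NADPH, fell by 2.77, 3.43 and 2.72 on the log2 scale, and the citrate carrier Slc25a1 fell by 1.57, 1.47 and 1.43. Acss2, the cytosolic acetyl-CoA synthetase, fell by 1.92, 1.61 and 1.69, and the citrate lyase Acly fell with YAP (-1.78 and -1.71). Of 9 lipogenic regulators, 6, 5 and 7 were lower and none higher, with medians of -1.05, -1.12 and -1.04; total-count scaling gave 3, 4 and 4 lower, and 1 higher at each YAP time. Among them were Scap, the escort of SREBP proteins (-1.59, -1.83 and -0.56), Nr1h3, the receptor LXR alpha (-1.28, -1.12 and -0.63), and Ppara, which controls fat oxidation (-1.35, -1.26 and -1.34). With MYC the smallest p of the list belonged to Insig1 and Insig2 (-2.43 and -2.90). At 2 weeks Insig2 passed (-1.77) and Insig1 did not (-0.88, edgeR adjusted p = 0.127). The counts take no account of whether a gene promotes or restrains lipogenesis. Srebf1 itself, named after its values were seen, passed in none, with 237 ± 24.4 CPM after 4 weeks, 209 ± 30.8 CPM after 2 weeks and 251 ± 114 CPM in YAP controls, and 188 ± 29.6 CPM in MYC livers against 198 ± 32.2 CPM in MYC controls.

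Genes that activate, use or degrade long chains also changed. Of 11 acyl-CoA synthetases, 6 were lower and 1 higher at 4 weeks, 6 lower and 2 higher at 2 weeks, and 5 lower and 1 higher with MYC (medians -0.68, -0.66 and -1.34, or -0.68, -0.62 and -0.88 with genes absent from 1 group set to 3 counts a library). With total-count scaling 4 were lower and 2 higher in each comparison, and the 4-week median was 0.06. Acsl1, the main hepatic enzyme, fell by 1.605, 1.83 and 1.45 on the log2 scale, and Acsl5 changed by -1.30, -1.05 and -1.37. Of 4 ceramide synthases tested (2 higher and 1 lower, 1 and 1, 1 and 1; medians 1.15, 0.89 and 0.03), Cers2, which uses very long chains, fell in all 3 (-1.20, -0.97 and -1.00) and Cers6, which uses palmitate, rose in all 3 (2.25, 2.40 and 1.06). With total-count scaling 3 were higher and 1 lower at 4 weeks, 2 and 0 at 2 weeks, and 1 and 1 with MYC. Of 9 genes of peroxisomal very long chain oxidation, 7, 7 and 4 were lower and 1 was higher each time, with medians of -1.49, -1.55 and -1.05; total-count scaling gave 4 lower each time, and 2, 2 and 1 higher. Scp2, a thiolase and sterol carrier, fell by 3.14, 2.85 and 2.38 and Abcd3 by 2.02, 1.83 and 1.54, and the very long chain transporter Abcd2 rose (3.10, 3.07 and 1.36).

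**Figure D4:**
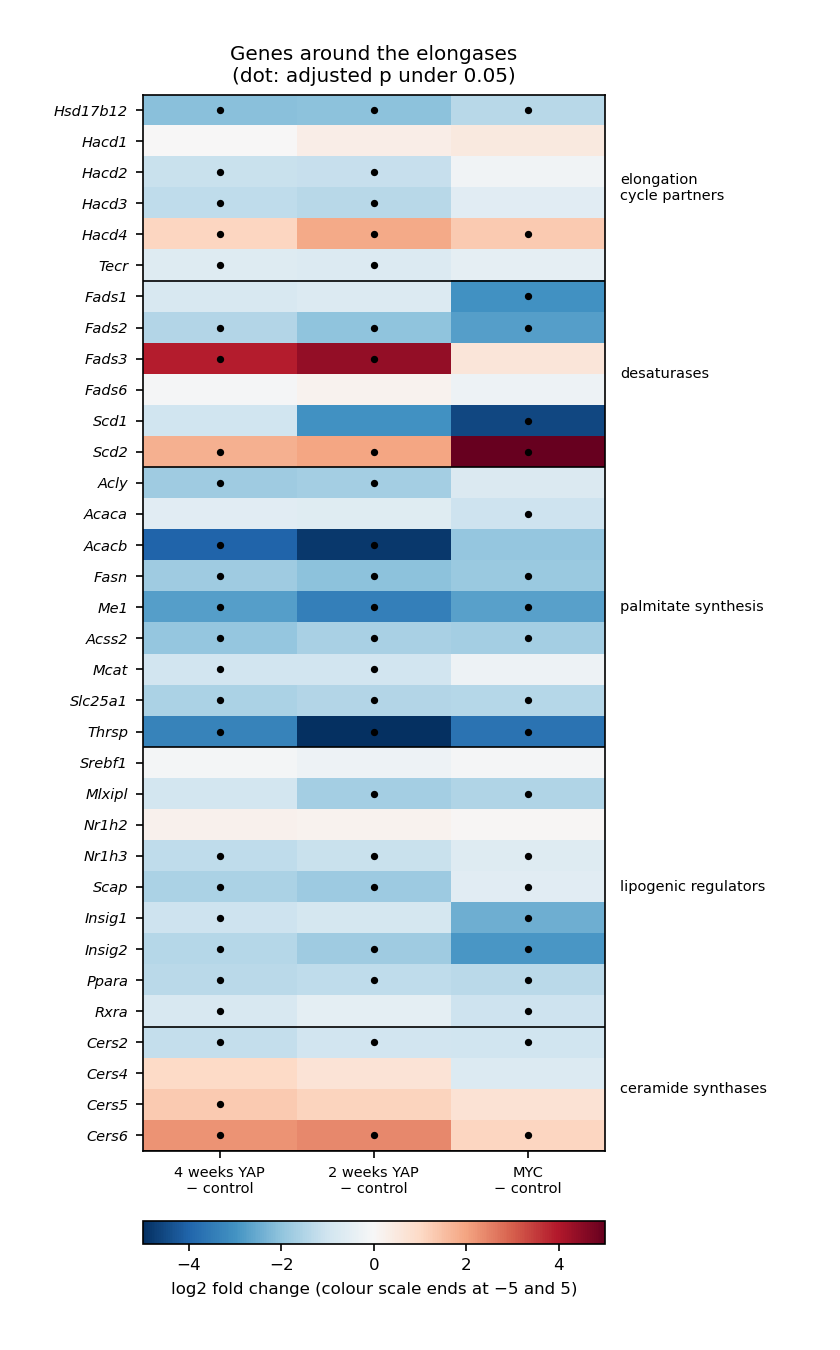
log2 fold change against controls of the tested genes of 5 lists around the elongases, in colour from -5 to 5, for 4 weeks and 2 weeks of YAP and for MYC; dots mark adjusted p under 0.05. Palmitate synthesis and lipogenic regulator genes carry dots only on the lower side, as does Hsd17b12, whereas Hacd4, Scd2 and Cers6 carry dots on the higher side in all 3 columns.

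The genes most like Elovl3 across libraries were major urinary protein genes and Hsd3b5, both known as male-biased in mouse liver. Likeness was the root-mean-square difference of log2 CPM over the 12 libraries after centring each gene, among genes with a proper symbol. The 8 nearest were Mup18 (0.47), Mup9 (0.49), Mup-ps17 (0.53), Hsd3b5 (0.65), Mup10 (0.69), Mup6 (0.76), Mup-ps22 (1.05) and Mup21 (1.07), where Elovl3 itself ranged over 9.31, and 7 of the 8 were shared when group means were used. Mup genes are near-identical copies whose reads may be split between them, so they are not 7 separate observations. Hsd3b5, a steroid dehydrogenase gene, averaged 0.095 ± 0.12 CPM after 4 weeks (n = 3), 0.213 ± 0.301 CPM after 2 weeks (n = 2) and 209 ± 17.7 CPM in YAP controls (n = 2), while MYC livers (n = 3) had 0.433 ± 0.142 CPM against 109 ± 14.1 CPM in MYC controls (n = 2).

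Elovl6 was closest to Fasn, the synthase that makes its substrate, at 0.25, followed by Fras1 (0.41) and Arhgap42 (0.43). Fasn had 148 to 308 CPM after 4 weeks, 151 and 253 CPM after 2 weeks and 465 and 1229 CPM in YAP controls, and 239 to 583 CPM in MYC livers against 1220 and 1482 CPM in MYC controls. Elovl2 was closest to Lrat (0.25), an enzyme of vitamin A storage, Abca8b (0.33) and Creb3l3 (0.33). Elovl5 was closest to Fam35a (0.40), Hsd3b2 (0.43) and G0s2 (0.46). Elovl1 was closest to Dstn (0.14), Ppp2r5e (0.15) and Ercc3 (0.17), and Elovl7 to Guca2b (0.69), Tmod1 (0.69) and Zim1 (0.78).

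**Figure D5:**
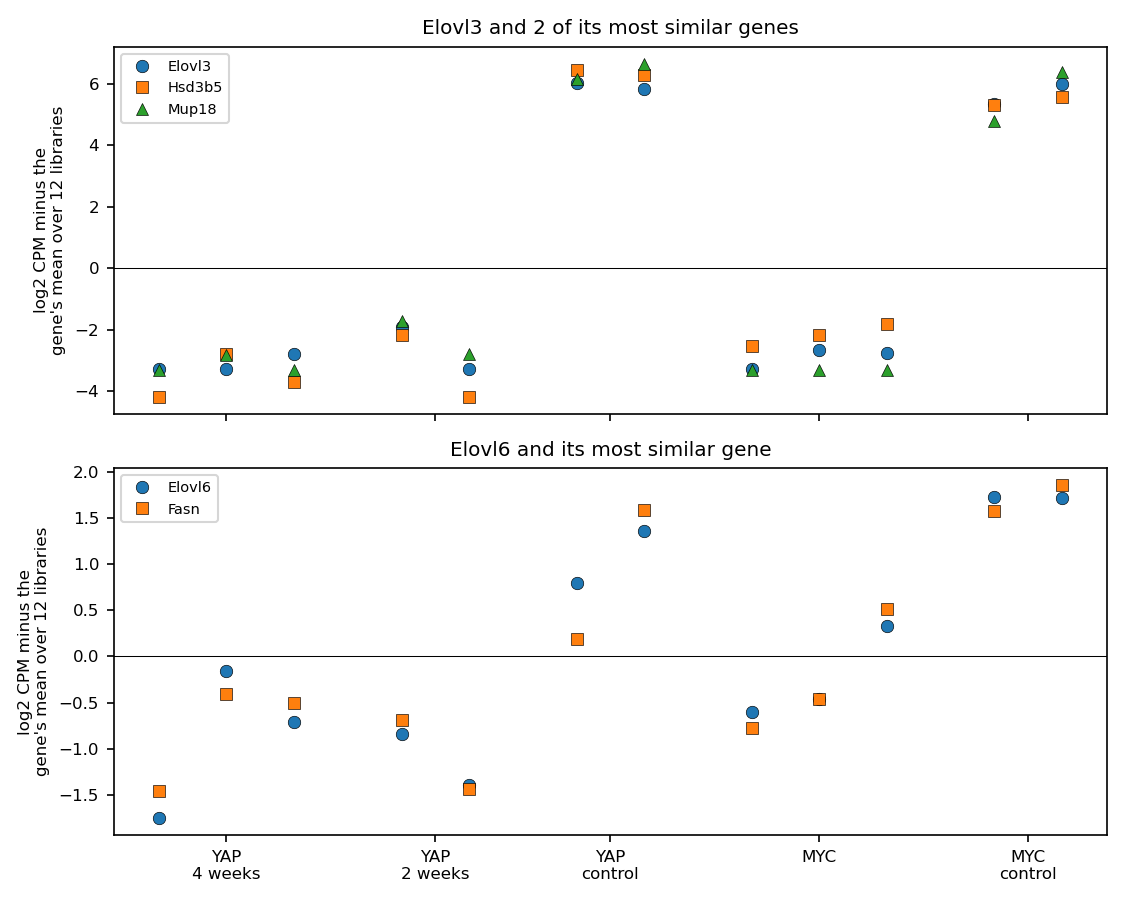
log2 CPM of Elovl3 with Hsd3b5 and Mup18 (top) and of Elovl6 with Fasn (bottom), each gene minus its mean over the 12 libraries, with 1 point per library and gene. The upper genes fall into a high set made of the 4 controls and a low set made of the 8 induced libraries, and Elovl6 and Fasn track each other through intermediate values.

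Male-biased liver genes were lower along with Elovl3. Of 17, 16 were lower at 4 weeks, 13 at 2 weeks and 11 with MYC, and the 1 called higher, Cyp4a12b with MYC, had 41.7 ± 14.6 CPM in MYC livers (n = 3) against 4.96 ± 0.615 CPM in MYC controls (n = 2). The medians were -5.57, -4.38 and -2.99. The 4-week libraries and 2-week replicate 2 had the female pattern of Xist and Ddx3y, and the YAP controls had the male pattern. For male-biased and female-biased genes too, sex pattern and induction therefore cannot be told apart at 4 weeks. Of 19 female-biased genes, 7 were higher and 1 lower at 4 weeks, 6 and 2 at 2 weeks, and 6 and 1 with MYC. Their medians were 3.62, 2.26 and 1.96, or 3.20, -0.30 and 1.96 with genes absent from 1 group set to 3 counts a library. The 1 called lower with MYC, Ntrk2, had 0.806 ± 0.337 CPM in MYC livers (n = 3) against 39.3 ± 5.13 CPM in MYC controls (n = 2). The summed level of the female-biased genes differed between MYC livers, at 1005, 372.5 and 182 CPM, against 108.5 and 117 CPM in MYC controls. Cux2, a female-biased repressor in mouse liver, stood at 64.5 ± 20.1 CPM after 4 weeks (n = 3), 72.5 ± 6.94 CPM after 2 weeks (n = 2) and 0.58 ± 0.82 CPM in YAP controls (n = 2), while MYC livers (n = 3) had 21.95 ± 7.18 CPM against 1.04 ± 0.0333 CPM in MYC controls (n = 2). Among 10 genes of growth hormone and androgen signalling, 2 were higher and 3 lower at 4 weeks, 4 were lower at 2 weeks and 5 were lower with MYC, with medians of -0.67, -0.72 and -1.38 (0.08, -0.18 and -1.00 with total-count scaling) and the growth hormone receptor Ghr lower in all 3 (-2.76, -3.17 and -1.80). The 2 of 10 higher at 4 weeks is about the 18.1% of all genes called higher. The list did not move as 1 across models. Socs2 fell with MYC (-2.39), and its MYC effect minus the 4-week YAP effect was -3.80 (edgeR adjusted p = 0.00895). It was the only 1 of the 10 called for that difference. Of 16 clock genes, 3 were higher and 3 lower at 4 weeks, 4 and 1 at 2 weeks, and 1 and 4 with MYC, with medians of 0.41, 0.61 and -0.83. At 4 weeks these counts are close to the 18.1% higher and 15.7% lower of all genes, and total-count scaling gave 8 higher and 1 lower at 4 weeks, 8 and 0 at 2 weeks, and 1 and 2 with MYC. Per1 rose with YAP (2.28 and 2.65), and the nuclear repressors Nr1d1 and Nr1d2 fell with MYC (-3.97 and -1.58). The hour of collection and the age of the MYC controls are not given in the sources used here. The part of age, sex pattern, clock phase and cell composition in the elongase values was not tested.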

How the data were processed

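RNA of mouse livers was sequenced in 12 libraries after library preparation with the NuGEN Ovation Mouse system, per the labels' protocols. The authors deposited raw counts per gene symbol, 1 table per library with 48576 symbols; the submitters' processing notes name featureCounts 1.6.3, along with DESeq2 1.20.0, HISAT2 2.1.0 and Trim Galore 0.4.1, and the build GRCm38/mm10. A strand setting is not given in the sources used here. Exon lengths and positions came from GENCODE on GRCm38 (95.4% of symbols matched 1 gene model).

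Counts were tested in 1 edgeR 4.0.16 model (R 4.3.3) with a mean for each of the 5 groups over all 12 libraries, TMM scaling, edgeR's filter on low counts (17964 genes kept) and the robust quasi-likelihood test, with 7 residual degrees of freedom. Levels are TMM-scaled CPM; log2 CPM for likeness used a prior count of 2. In simulated data with 200 changed genes the fit was checked first. Exact counting intervals were computed at 95%. Alternatives were total-count scaling, DESeq2's size factors and its test (DESeq2 1.42.0), no filter, libraries of 1 model only, a replicate block, non-robust dispersion and each library left out.

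The members and the gene lists were chosen with earlier results of these data known. From each list the called genes with the smallest p, up to 4 a comparison, could be named. The labels tie no replicate number to a shared animal, litter or day, and same-numbered libraries belong to different treatments or genotypes, so the numbers do not pair them. Replicates of a group differed by more than sampling noise.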

Additional observations from a re-analysis of the deposited data

How the results depend on the processing

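Elovl5 kept its direction and its call against controls in all 3 comparisons under every alternative, and the direction of Elovl2 and Elovl6 against controls never changed. Numbers of elongases called ranged, with each library left out in turn, over 2 to 4 at 4 weeks, 1 to 3 at 2 weeks, 1 to 5 with MYC, 0 to 1 between 4 and 2 weeks and 0 to 1 for the difference between models, where total-count scaling, DESeq2 and no filter on low counts also gave 1 in place of 0. Over all genes the calls ranged over 3324 to 6348 at 4 weeks (6073 with all libraries), 2445 to 5738 at 2 weeks (4993), 792 to 4192 with MYC (3291), 1 to 501 between 4 and 2 weeks (11) and 338 to 1868 for the difference between models (1344). Between 4 and 2 weeks total-count scaling gave 3 calls, DESeq2 81, no filter 42 and the libraries of 1 model 0; for the difference between models DESeq2 gave 2482.

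Deviations of same-numbered libraries from their group means correlated at -0.03 to 0.08, and the replicate block changed all-gene calls to 3539 at 4 weeks, 1514 with MYC, 2 between 4 and 2 weeks and 308 for the difference between models. Total-count scaling turned the sign of Tecr at 4 weeks (0.094), of Hacd2 with MYC (0.24) and of Srebf1 at 4 weeks, at 2 weeks and with MYC (0.66, 0.26 and 0.32), none of which passed there; the cause was not tested. With single libraries left out, signs turned for Elovl7 at 2 weeks, a value of 1.84 with all libraries (-0.67 to 2.70), for Elovl3 between 4 and 2 weeks, a value of -1.92 that rests on 0 to 3 counts a library (-3.60 to 1.72), and for values closer to 0: Elovl1 at 4 weeks (-0.29 to 0.21), Srebf1 at 4 weeks (-0.48 to 0.47), at 2 weeks (-0.66 to 0.29) and with MYC (-0.23 to 0.11), between 4 and 2 weeks Elovl2 (-0.11 to 0.85), Elovl5 (-0.059 to 0.40) and Elovl6 (-0.043 to 0.69), and for the difference between models Elovl2 (-0.84 to 0.13), Elovl6 (-0.41 to 0.34) and Elovl7 (-0.23 to 1.204). The MYC call of Elovl1 was lost under total-count scaling, the replicate block (adjusted p = 0.167) and 9 of the 12 settings that leave out a library. With every induced library below 3 counts set to 3, the control-over-induced ratio of Elovl3 was 464 at 4 weeks, 419 at 2 weeks and 378 with MYC; depth limits how low its level can be placed.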
